A study of Mus musculus with 8 samples.

Results

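The enzymes that make prostaglandins and break them down are described here as 10 genes in the esophagus of healthy mice: Pla2g4a, Ptgs1, Ptgs2, Ptges, Ptges2, Ptges3, Ptgds, Ptgis, Tbxas1 and Hpgd. They were chosen by name for their place in the pathway, all 10 are among the 32849 gene symbols of the count table, and 9 of them were among the 14864 genes with enough counts to test. Frozen esophagus was the tissue, and RNA with poly(A) tails was sequenced in 4 MGL KO and 4 WT libraries. MGL, monoacylglycerol lipase, is encoded by Mgll and was deleted in the whole animal, and the WT controls were littermates of the knockout line. Neither group carried another stated allele or received a treatment, and the study used young adult mice of both sexes without giving the sex or age behind each library.

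Monoacylglycerol lipase splits the endocannabinoid 2-arachidonoylglycerol into glycerol and arachidonic acid, so it is a source of the fatty acid from which prostaglandins are made. Phospholipases A2 release the same acid from membranes, the cyclooxygenases PTGS1 and PTGS2 turn it into prostaglandin H2, and terminal synthases turn that into prostaglandin E2, prostaglandin D2, prostacyclin or thromboxane. Signalling ends when 15-hydroxyprostaglandin dehydrogenase, encoded by Hpgd, oxidises prostaglandins to less active products. The comparison asks whether the transcripts of these enzymes differ between esophagi with and without MGL.

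Mgll, the targeted gene, had 13.7 ± 1.54 CPM in MGL KO esophagi (SD, n = 4; normalized CPM are counts scaled to a common library size with TMM factors) and 81.2 ± 9.97 (SD, n = 4) in WT esophagi, a log2 fold change of -2.57 with an adjusted p of 0.000133 in edgeR's quasi-likelihood test. The libraries held between 13479069 and 17090152 counts, so that 3 counts equal 0.167 to 0.271 normalized CPM. They differed in tissue makeup. The library MGL KO 4 held airway transcripts, with 8975 normalized CPM over 6 airway secretory markers against at most 52.4 in the other libraries. In MGL KO 2 and WT 3 the 7 markers of differentiated squamous epithelium summed to 2182.2 and 3075 normalized CPM, the lowest of the 8 libraries. Skeletal muscle markers summed to between 29725 and 74888 normalized CPM. WT 1 had the highest sums of macrophage markers (484.2 normalized CPM), mesothelium markers (187.9) and mast cell markers (14.7). In such bulk tissue, fewer cells of a type and less RNA per cell cannot be told apart.

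Among the prostaglandin enzymes, none of the 9 tested members passed the adjusted p threshold of 0.05 in edgeR's quasi-likelihood test, which called 0.0471% of all genes tested. Hpgd was the member with the largest difference, with a mean in MGL KO esophagi that was 48.9% of the WT mean. Below an unadjusted p of 0.05 were 3 members, Hpgd and Ptgis with lower means in MGL KO and Ptges3 with a higher mean, where 8.65% of all genes tested lay below this p. The log2 fold change (MGL KO minus WT throughout) was below 0 for 4 members, Ptgs1, Ptgis, Tbxas1 and Hpgd, and above 0 for 5, where 47% of all genes tested were below 0. The median log2 fold change was 0.16 over the 9 members and 0.02 over all genes tested. Normalized CPM did not overlap between the groups for 1 member, Hpgd, where 6.02% of all genes tested did not overlap and 3.3% had every MGL KO library below every WT library.

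**Figure D1:**
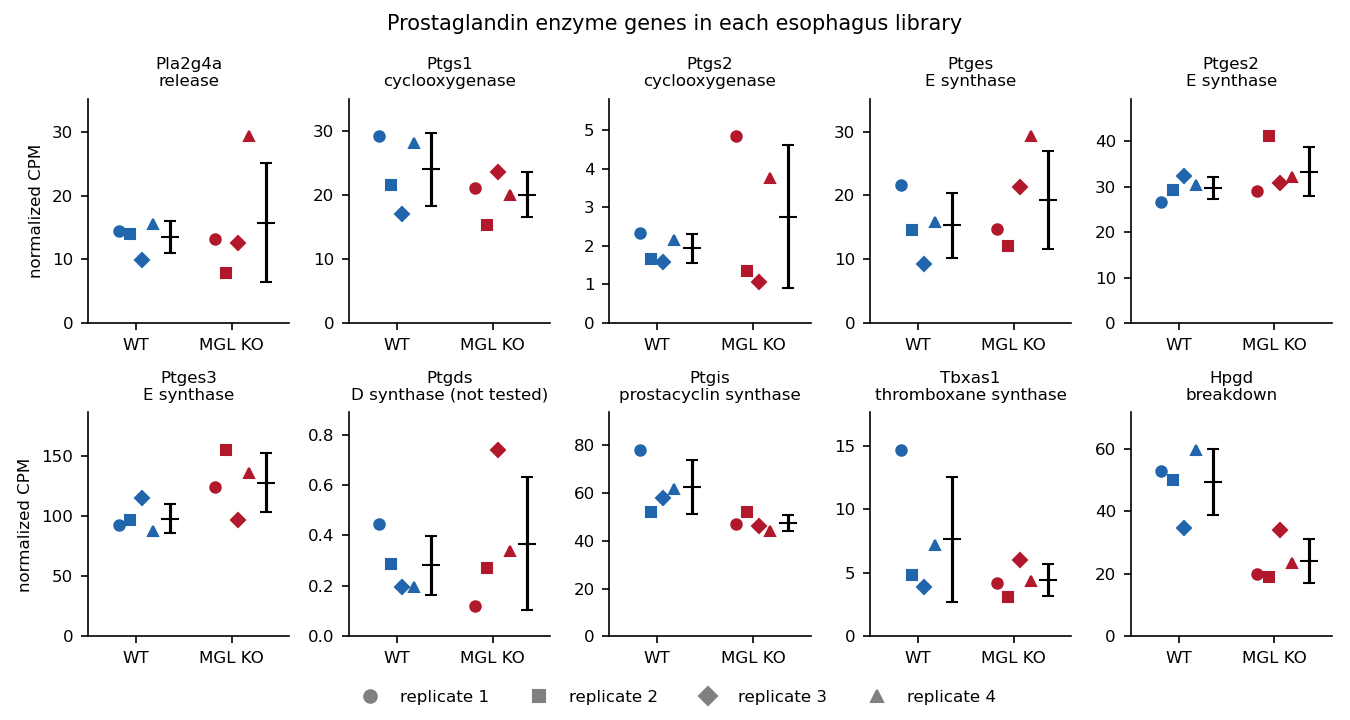
Normalized CPM of the 10 members in each library. Symbols are the 4 replicates of WT (blue) and MGL KO (red), and the bars beside them give the mean and SD; only for Hpgd are all MGL KO libraries below all WT libraries.

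Compared per kilobase of the canonical transcript in WT esophagi, the members covered a wide span of levels. Ptges3 was highest at 48.7 ± 6.05 CPM per kilobase (SD, n = 4). Ptgis at 28.4 ± 5.09 and Hpgd at 28.0 ± 6.04 CPM per kilobase followed and overlapped each other. Ptgs1 at 8.36 ± 1.99, Ptges2 at 5.69 ± 0.46, Pla2g4a at 4.73 ± 0.87, Ptges at 4.14 ± 1.38 and Tbxas1 at 3.78 ± 2.42 CPM per kilobase came next, and each overlapped its neighbour in this order. Ptgs2 at 0.41 ± 0.08 and Ptgds at 0.15 ± 0.06 CPM per kilobase stood below all others. Counted over all exons of each gene, Pla2g4a and Ptges traded places and the order was otherwise the same.

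Pla2g4a encodes the cytosolic phospholipase A2 that releases arachidonic acid from membranes. Its normalized CPM were 13.3, 7.85, 12.6 and 29.4 in MGL KO replicates 1 to 4 and 14.5, 14.0, 9.93 and 15.6 in WT replicates 1 to 4. The groups overlapped, and the highest value of all was that of MGL KO 4, the library with airway transcripts. The means were 15.8 ± 9.39 and 13.5 ± 2.47 (SD, n = 4 each), with a log2 fold change of 0.23 (SE 0.36) and an adjusted p of 0.862 in edgeR's quasi-likelihood test. Without MGL KO 4 the log2 fold change was -0.26, and without MGL KO 2 it was 0.45. Over the 8 libraries the log2 level of Pla2g4a correlated with that of the skeletal muscle markers at r = -0.95, a description of libraries that share their tissue makeup, as are all correlations below. With these markers as a covariate the log2 fold change of Pla2g4a was 0.063. The genes most like Pla2g4a were Pgrmc1 (r = 0.997) and Sort1 (r = 0.989).

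The cyclooxygenases carry out the committed step. Ptgs1 encodes the constitutive cyclooxygenase, and Ptgs2 encodes the form that is induced by cytokines and injury. The 300 bases around the RefSeq start of each, 250 before it and 50 from it on, are shown with those of Hpgd. Hpgd was added because its difference was the largest among the members and its ratio to the cyclooxygenases is given below. Capitals mark matches to GGGCGG and to CACGTG and to TGACG and to TATAAA on either strand, and CCAAT was searched too. The windows come from the RefSeq promoter table and were located on GRCm39 by exact match, all on the forward strand, at chr2:36120188-36120487 for Ptgs1, chr1:149975532-149975831 for Ptgs2 and chr8:56747337-56747636 for Hpgd.
Ptgs1: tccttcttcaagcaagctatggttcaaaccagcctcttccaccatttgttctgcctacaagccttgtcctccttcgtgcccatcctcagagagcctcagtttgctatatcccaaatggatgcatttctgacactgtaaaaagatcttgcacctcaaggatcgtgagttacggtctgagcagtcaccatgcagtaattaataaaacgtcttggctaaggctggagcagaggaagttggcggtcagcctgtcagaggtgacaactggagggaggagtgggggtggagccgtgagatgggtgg
Ptgs2: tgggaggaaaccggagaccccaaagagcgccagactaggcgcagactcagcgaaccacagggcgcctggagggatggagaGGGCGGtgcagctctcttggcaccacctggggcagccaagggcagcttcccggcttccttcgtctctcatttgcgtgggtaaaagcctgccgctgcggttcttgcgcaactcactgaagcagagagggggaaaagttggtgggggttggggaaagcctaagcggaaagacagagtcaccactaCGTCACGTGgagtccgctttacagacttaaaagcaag
Hpgd: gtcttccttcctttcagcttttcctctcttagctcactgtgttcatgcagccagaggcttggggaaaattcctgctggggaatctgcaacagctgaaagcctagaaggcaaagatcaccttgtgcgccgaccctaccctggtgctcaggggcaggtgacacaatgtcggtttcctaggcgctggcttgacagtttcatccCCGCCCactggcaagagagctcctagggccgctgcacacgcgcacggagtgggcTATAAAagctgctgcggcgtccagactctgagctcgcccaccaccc
In the Ptgs2 window GGGCGG starts at base 81, counted from 1 at the window's 5′ end, and a reverse-strand TGACG at base 264 overlaps CACGTG at base 267. In the Hpgd window a reverse-strand GGGCGG starts at base 201 and TATAAA at base 255. The matches at bases 255, 264 and 267 lie after the RefSeq start, not before it. The Ptgs1 window held none of the 5 motifs, and none of the 3 windows held CCAAT. Of all 32851 windows in the table, 35.7% held GGGCGG, 37.4% CCAAT, 20.8% TGACG, 13.6% TATAAA and 7.15% CACGTG, so these matches are common ones. The genes, motifs and windows were chosen after expression values had been seen, and windows cut first from the GENCODE canonical starts held neither CACGTG for Ptgs2 nor TATAAA for Hpgd. A further motif of the first search, TTAAAA, was dropped.

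Ptgs1 (chromosome 2, 36120438 to 36142287, forward strand, GRCm39) had 21.1, 15.3, 23.6 and 20.01 normalized CPM in MGL KO replicates 1 to 4 and 29.1, 21.6, 17.03 and 28.1 in WT replicates 1 to 4. The groups overlapped, with the lowest value in MGL KO 2 and the next lowest in WT 3, the libraries with the least squamous marker RNA. The means were 19.98 ± 3.50 and 24.0 ± 5.70 (SD, n = 4 each), with a log2 fold change of -0.26 (SE 0.20) and an adjusted p of 0.721 in edgeR's quasi-likelihood test. Without MGL KO 2 the log2 fold change was -0.15. Ptgs1 correlated over the 8 libraries with the fibroblast markers at r = 0.86 and with the mast cell markers at r = 0.87, and within the groups at 0.83 and 0.89. Of the mast cell markers, only 3 of 7 had enough counts to test. With the endothelial markers r was 0.84 and with the macrophage markers 0.68 (0.81 and 0.60 within the groups). It was 0.79 with the basal squamous, 0.73 with the enteric glia and 0.69 with the adipocyte markers (0.81, 0.82 and 0.87 within the groups). With the macrophage or the fibroblast markers as a covariate the log2 fold change of Ptgs1 turned sign, to 0.055 and 0.016. The genes with the most similar patterns over the 8 libraries were Cd163 (r = 0.968), a macrophage scavenger receptor, and Mctp1 (r = 0.966).

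Ptgs2 (chromosome 1, 149975194 to 149983978, forward strand, GRCm39) was near the lower end of detection. Its normalized CPM were 4.84, 1.35, 1.05 and 3.77 in MGL KO replicates 1 to 4, from 79, 15, 17 and 67 counts. In WT replicates 1 to 4 they were 2.34, 1.66, 1.58 and 2.15, from 42, 29, 24 and 33 counts. The MGL KO libraries fell on both sides of the WT libraries, 2 above all of them and 2 below all of them. The log2 fold change was 0.52 (SE 0.48) with an adjusted p of 0.766 in edgeR's quasi-likelihood test, and it was 0.10 without MGL KO 1 and 0.79 without MGL KO 3. Trim65 (r = 0.917) and Utp20 (r = 0.910) were most like Ptgs2 in pattern. There were 10.9 ± 8.36 counts of Ptgs1 for each count of Ptgs2 in MGL KO and 12.3 ± 1.07 in WT libraries (SD, n = 4 each), so the constitutive form made up most cyclooxygenase counts in both groups. An antisense gene, Ptgs2os, overlaps Ptgs2, every other member but Ptges2 and Hpgd also spans an annotated gene on the opposite strand, and whether the counting used strand is not given in the sources used here. Hpgd overlaps Gm45540, an annotated gene on its own strand, and how reads in that overlap were counted is not given either.

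Prostaglandin E2 is made by 3 of the synthases. Ptges encodes the inducible microsomal enzyme that is known to work with PTGS2. It had 14.7, 12.1, 21.3 and 29.3 normalized CPM in MGL KO replicates 1 to 4 and 21.6, 14.5, 9.20 and 15.9 in WT replicates 1 to 4. The groups overlapped, and MGL KO 4 was again the highest. The log2 fold change was 0.34 (SE 0.32) with an adjusted p of 0.767 in edgeR's quasi-likelihood test, and it was 0.07 without MGL KO 4 and 0.55 without WT 1. It was 0.88 with the macrophage markers as a covariate (unadjusted p = 0.0553, adjusted p = 0.665 in the same edgeR test) and 0.62 with the fibroblast markers. The genes most like Ptges were Mon1b (r = 0.990) and App (r = 0.983). Ptges correlated with the adipocyte markers at r = 0.97 over the 8 libraries and 0.98 within the groups. These 5 adipocyte markers summed to between 79.8 and 503.9 normalized CPM in MGL KO and between 59.0 and 330.2 in WT libraries, and their part in the Ptges values was not tested.

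Ptges3 encodes the cytosolic prostaglandin E synthase, a protein better known as p23, a co-chaperone of HSP90. It had 124.0, 154.9, 96.5 and 135.5 normalized CPM in MGL KO replicates 1 to 4 and 92.2, 96.5, 115.0 and 87.1 in WT replicates 1 to 4. Of the MGL KO libraries, 3 lay above all WT libraries and replicate 3 lay among them. The means were 127.7 ± 24.4 and 97.7 ± 12.2 (SD, n = 4 each), with a log2 fold change of 0.39 (SE 0.16), an unadjusted p of 0.0352 and an adjusted p of 0.550 in edgeR's quasi-likelihood test. Ptges3 ran opposite to the fibroblast markers, at r = -0.96 over the 8 libraries and -0.97 within the groups. The summed fibroblast markers ranged from 1423 to 3296 normalized CPM in MGL KO and from 2121 to 3181 in WT libraries, all 7 had a lower mean in MGL KO, and 2 of them had an unadjusted p below 0.05. With their mean log2 CPM as a covariate, the log2 fold change of Ptges3 was 0.14. Prkag2os1 (r = 0.964) and Mrpl39 (r = 0.962) were most like it in pattern. Ptges2, the membrane-associated enzyme, had 29.0 to 41.1 normalized CPM in MGL KO and 26.7 to 32.4 in WT libraries, with a log2 fold change of 0.16 (SE 0.13, adjusted p = 0.729 in the same edgeR test) that was 0.05 without MGL KO 2. Glrx5 (r = 0.986) and Mcat (r = 0.979) were most like Ptges2 in pattern.

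Ptgds, the lipocalin-type prostaglandin D synthase, was too low to test. It had 2, 3, 12 and 6 counts in MGL KO replicates 1 to 4 and 8, 5, 3 and 3 counts in WT replicates 1 to 4, between 0.12 and 0.74 normalized CPM. The other D synthase, the hematopoietic Hpgds, was a listed pathway gene and had 2.27, 3.07, 1.91 and 8.43 normalized CPM in MGL KO replicates 1 to 4 and 7.36, 3.48, 3.55 and 4.11 in WT replicates 1 to 4. The MGL KO mean of 3.92 ± 3.05 (SD, n = 4) was carried by MGL KO 4, the library with airway transcripts, and the other MGL KO libraries lay below all WT libraries, whose mean was 4.63 ± 1.85 (SD, n = 4). This WT mean was likewise raised by WT 1. The log2 fold change of Hpgds was -0.23 (SE 0.50) with an adjusted p of 0.900 in edgeR's quasi-likelihood test.

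Ptgis encodes prostacyclin synthase, whose product relaxes vessels and keeps platelets from clumping. It had 47.1, 52.1, 46.4 and 44.0 normalized CPM in MGL KO replicates 1 to 4 and 78.1, 51.9, 58.0 and 61.7 in WT replicates 1 to 4. The groups overlapped only through MGL KO 2, which lay just above WT 2. The means were 47.4 ± 3.41 and 62.4 ± 11.2 (SD, n = 4 each), with a log2 fold change of -0.40 (SE 0.13), an unadjusted p of 0.0143 and an adjusted p of 0.503 in edgeR's quasi-likelihood test. The highest value of all was that of WT 1. Without WT 1 the log2 fold change was -0.27, and without WT 2 it was -0.48.

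Tbxas1 encodes thromboxane synthase, an enzyme of platelets and macrophages. It had 4.23, 3.07, 6.04 and 4.38 normalized CPM in MGL KO replicates 1 to 4 and 14.7, 4.79, 3.88 and 7.17 in WT replicates 1 to 4. Its WT mean was set largely by replicate 1, which stood above all other libraries. The log2 fold change was -0.78 (SE 0.43) with an adjusted p of 0.640 in edgeR's quasi-likelihood test, and it was -0.25 without WT 1.

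Both of these synthases moved with macrophage markers. The 7 markers, Adgre1, Cd68, Csf1r, Mrc1, C1qa, C1qb and Fcgr1, were all detected and summed to 132.6 to 167.0 normalized CPM in MGL KO libraries. In WT replicates 1 to 4 the sums were 484.2, 190.1, 158.1 and 279.2 normalized CPM, so WT 1 raised the WT mean most. All 7 had a lower mean in MGL KO and an unadjusted p below 0.05, and none passed after adjustment in edgeR's quasi-likelihood test (adjusted p from 0.503 to 0.578). Ptgis correlated with them at r = 0.91 over the 8 libraries and 0.83 within the groups, and Tbxas1 at 0.87 and 0.83. Tbxas1 ran as closely with the mast cell markers, at 0.87 and 0.92, which summed to 1.26 to 5.61 normalized CPM in MGL KO and 0.79 to 14.7 in WT libraries, and within the groups it correlated with the adipocyte markers at 0.81. The genes most like Tbxas1 were Grap (r = 0.989) and Gda (r = 0.988). The genes most like Ptgis were Trem2 (r = 0.979) and Clec4a1 (r = 0.972), and both are expressed by myeloid cells. With the mean log2 CPM of the macrophage markers as a covariate, the log2 fold change of Ptgis was -0.15 and that of Tbxas1 was 0.26, opposite in sign to the value without it. The 5 platelet markers summed to 16.9 to 26.9 normalized CPM in MGL KO and 21.2 to 25.8 in WT libraries and had no common direction. Ppbp was higher in every MGL KO library (log2 fold change 1.78, unadjusted p = 0.011, adjusted p = 0.499 in edgeR's quasi-likelihood test), Pf4 had a log2 fold change of -0.37 and Itga2b of 0.01, Gp9 stayed under 1 CPM and Gp1bb had 0 counts in all libraries.

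**Figure D2:**
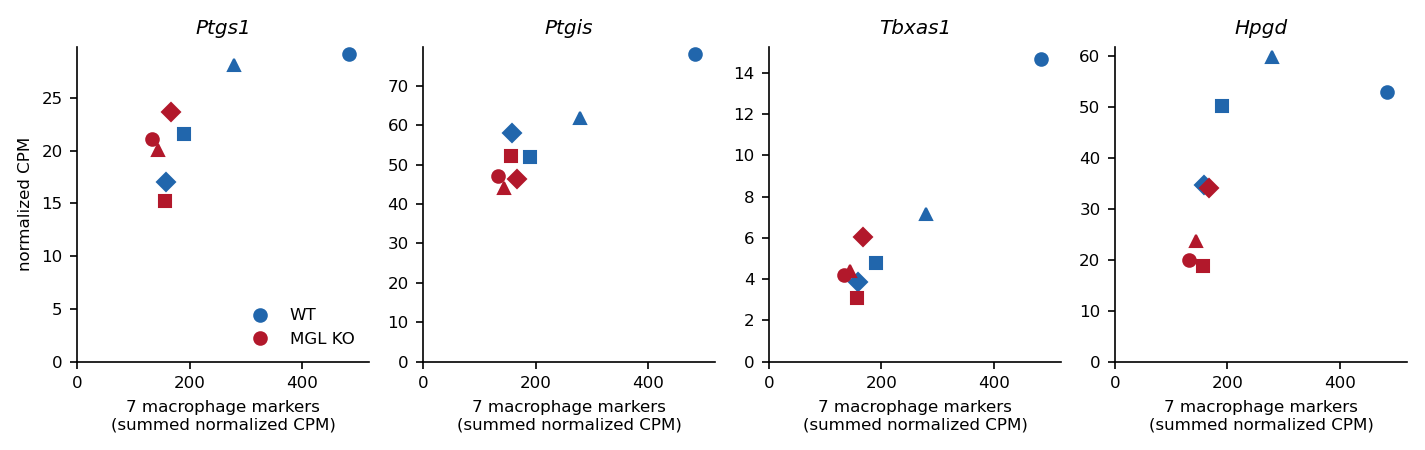
Normalized CPM of Ptgs1, Ptgis, Tbxas1 and Hpgd (vertical axes) against the summed normalized CPM of 7 macrophage markers (horizontal axes), 1 symbol for each WT (blue) and MGL KO (red) library. WT 1, at 484.2 on the horizontal axis, is the highest library for Ptgs1, Ptgis and Tbxas1, and WT 4 is the highest for Hpgd.

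Hpgd (chromosome 8, 56747543 to 56774082, forward strand, GRCm39) differed most among the members. It had 19.96, 18.9, 34.1 and 23.6 normalized CPM in MGL KO replicates 1 to 4, from 326, 209, 553 and 420 counts. In WT replicates 1 to 4 it had 53.0, 50.1, 34.6 and 59.7 normalized CPM, from 950, 878, 526 and 916 counts. Every MGL KO library lay below every WT library, but MGL KO 3 and WT 3 nearly met. The means were 24.1 ± 6.95 and 49.4 ± 10.6 (SD, n = 4 each), with a log2 fold change of -1.03 (SE 0.22, 95% interval -1.54 to -0.52). The unadjusted p was 0.00134 and the adjusted p was 0.306 in edgeR's quasi-likelihood test, in which Hpgd ranked 64 of the 14864 genes by p.

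Whether Hpgd passed depended on the test. Its adjusted p was 0.0138 in edgeR's exact test as run here, which called 0.431% of the genes tested. It was 0.0295 in the exact test without a filter on low counts, which called 0.185%, and 0.00615 in DESeq2, which called 0.935%. The exact test with dispersions estimated from the design gave 0.0132 and called 0.437%. That form was run first, and edgeR's standard form replaced it after its count of calls had been seen. Hpgd was the 1 member that each of these 4 tests called. It did not pass in limma-voom with quality weights or in a robust quasi-likelihood fit. With 1 library left out of the quasi-likelihood test its log2 fold change ran from -1.24 without MGL KO 3 to -0.93 without WT 4, and it did not pass, as with all 8 libraries. Leaving out each library in turn was then added for edgeR's standard exact test with the filter and for DESeq2, after the data were seen. Hpgd passed in 4 of 8 such fits of the exact test (adjusted p from 0.000141 to 0.189, with 0.173% to 0.781% of genes called) and in 4 of 8 of DESeq2 (adjusted p from 1.9e-05 to 0.0897, with 0.472% to 1.14% called). In both tests the call was lost without MGL KO 1, WT 1, WT 2 or WT 4. The adjusted p without them was 0.106, 0.108, 0.130 and 0.189 in edgeR's exact test and 0.0672, 0.0582, 0.0668 and 0.0897 in DESeq2. Scaled by library size alone, Hpgd overlapped between the groups and Ptgis did not.

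**Figure D3:**
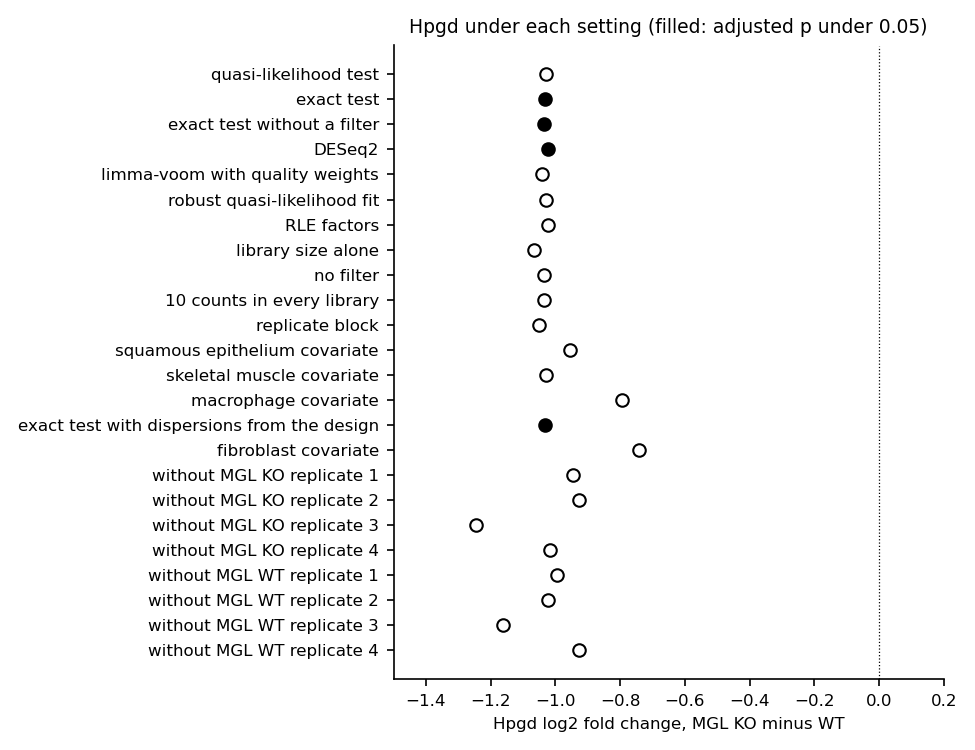
Log2 fold change of Hpgd, MGL KO minus WT (horizontal axis), in the quasi-likelihood test with all or all but 1 of the libraries and in the alternative settings with all libraries (rows). Filled circles are fits with an adjusted p below 0.05; all values lie between -1.24 and -0.74, and 4 of the fits are filled.

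Hpgd also moved with cell type markers. It correlated with the fibroblast markers at r = 0.80 over the 8 libraries and 0.83 within the groups, with the endothelial markers at 0.80 and 0.85, and with the macrophage markers at 0.72 and 0.42. The 6 endothelial markers summed to 158.9 to 294.8 normalized CPM in MGL KO and 217.9 to 303.6 in WT libraries, all had a lower mean in MGL KO, and 2 of them, Tek and Egfl7, had an unadjusted p below 0.05. Their part in the Hpgd values was not tested. With the fibroblast markers as a covariate its log2 fold change was -0.74 (unadjusted p = 0.00238, adjusted p = 0.713 in edgeR's quasi-likelihood test), and with the macrophage markers it was -0.79 (unadjusted p = 0.026, adjusted p = 0.621). Both covariates were added after the data were seen. Hpgd and Ptges3 ran opposite to each other, at r = -0.92 over the 8 libraries and -0.91 within the groups. The genes most like Hpgd were Klf8 and Clcn7, each at r = 0.952.

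Set against the cyclooxygenases, Hpgd had 0.771, 1.14, 1.38 and 0.993 counts for each count of Ptgs1 and Ptgs2 together in MGL KO replicates 1 to 4, and 1.68, 2.16, 1.86 and 1.97 in WT replicates 1 to 4. The means were 1.07 ± 0.257 and 1.92 ± 0.199 (SD, n = 4 each), and the groups did not overlap. A ratio within a library does not depend on how the libraries are scaled. The nearest libraries of the groups were MGL KO 3 at 1.38 and WT 1 at 1.68. Hpgd alone already did not overlap, so the ratio is not separate evidence. The ratios were chosen after the values of Hpgd had been seen and were given no test.

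**Figure D4:**
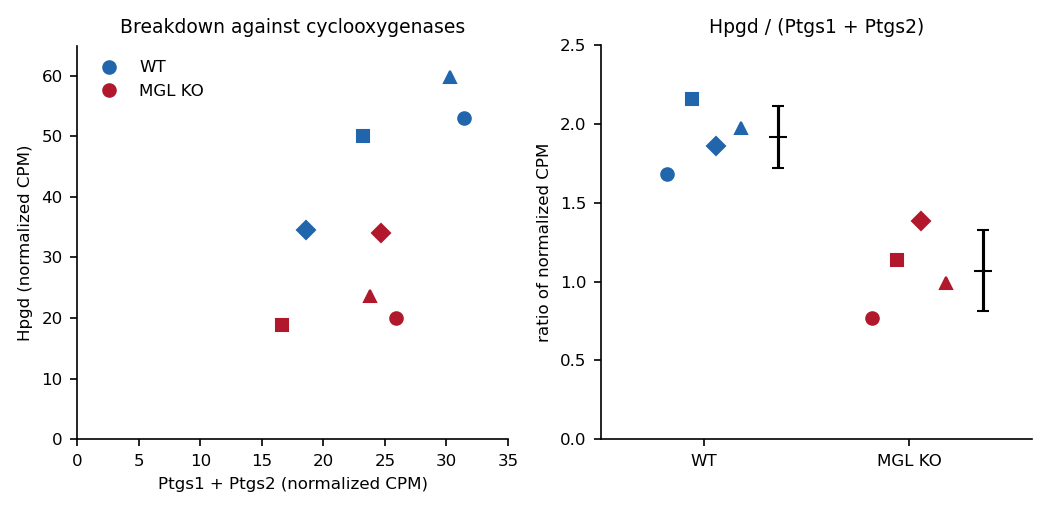
Left, normalized CPM of Hpgd (vertical axis) against the sum of Ptgs1 and Ptgs2 (horizontal axis), and right, their ratio, for WT (blue) and MGL KO (red) libraries with the mean and SD as bars. The ratio lies between 0.771 and 1.38 in MGL KO and between 1.68 and 2.16 in WT libraries.

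The enzymes that act on prostaglandins beside or after HPGD were nearer to equal. Ptgr1, a prostaglandin reductase, had 237.5 ± 65.5 normalized CPM in MGL KO and 265.2 ± 75.1 in WT esophagi. Ptgr2, which reduces the product of HPGD, had 47.5 ± 3.29 and 47.3 ± 5.03, a log2 fold change of 0.01 with a 95% interval of -0.23 to 0.24. Zadh2, also named Ptgr3, had 49.8 ± 6.44 and 53.9 ± 4.64, and Cbr1, a carbonyl reductase, had 30.8 ± 6.77 and 36.5 ± 9.83 (SD, n = 4 each). None of these 4 breakdown genes passed the test, with adjusted p from 0.754 to 0.990 in edgeR's quasi-likelihood test. Hpgd had 0.487 ± 0.134 counts for each count of Zadh2 in MGL KO and 0.909 ± 0.138 in WT libraries, and these ratios did not overlap. Per count of Ptgr1 it had 0.111 ± 0.0528 and 0.204 ± 0.0888 counts, and those ratios overlapped. For the transporters, Slco2a1, which carries prostaglandins into cells, had 11.6 ± 6.38 and 9.75 ± 4.02 normalized CPM, and Abcc4, which exports them, had 25.6 ± 3.98 and 25.6 ± 3.88.

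Of all 36 other pathway genes listed, 26 were tested and none was called, with 10 log2 fold changes above 0 and 16 below (47% of all genes tested were below), a median of -0.05, and no gene whose groups did not overlap. An unadjusted p below 0.05 was found for 2 of the 26, no larger a share than the 8.65% of all genes tested, and both were other phospholipases A2. Pla2g4e, which makes N-acyl phosphatidylethanolamines, had 42.8 ± 17.9 normalized CPM in MGL KO and 68.9 ± 9.05 in WT esophagi (log2 fold change -0.68, SE 0.28, unadjusted p = 0.0350, adjusted p = 0.550 in edgeR's quasi-likelihood test). Pla2g15, the lysosomal phospholipase, had 18.2 ± 1.09 and 24.5 ± 5.87 (log2 fold change -0.42, SE 0.17, unadjusted p = 0.0358, adjusted p = 0.552 in the same test). Of the 6 tested genes that make or re-esterify arachidonic acid, none had an unadjusted p below 0.05.

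**Figure D5:**
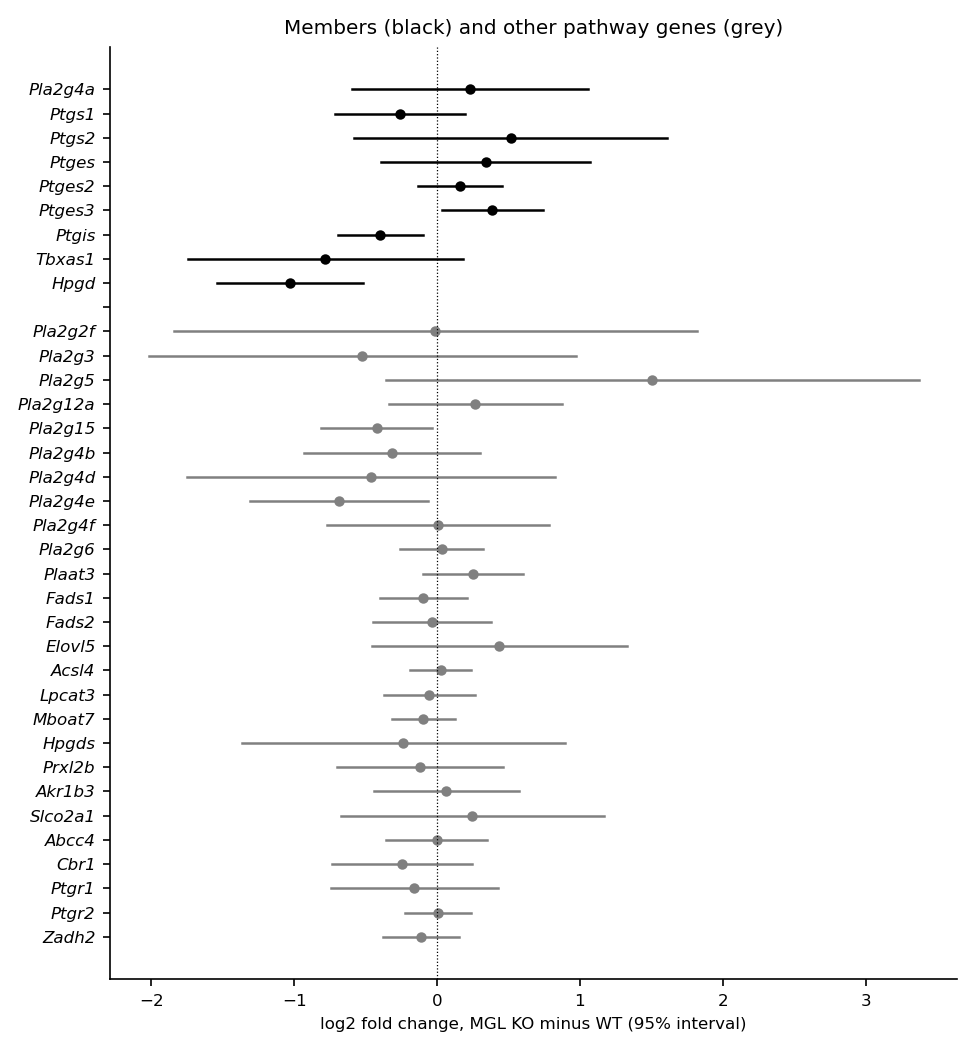
Log2 fold change, MGL KO minus WT (horizontal axis), with its 95% interval in edgeR's quasi-likelihood fit, for the 9 tested members (black) and the 26 other tested pathway genes (grey). The intervals of Ptges3, Ptgis, Hpgd, Pla2g15 and Pla2g4e exclude 0 before adjustment, and Hpgd at -1.03 lies farthest below 0.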

How the data were processed

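The 4 MGL KO and 4 WT libraries, from frozen esophagi of healthy mice, were grouped by their titles. Per the labels and the study's methods, the authors selected poly(A) RNA, checked reads with FastQC 0.11.9, trimmed them with Cutadapt, aligned them to GRCm39 with STAR 2.7.10b and deposited whole-number counts for each gene symbol without normalization. The counting tool, annotation and use of strand are not given in the sources used here. The study counts 4 esophagi per group and the labels name no animal for a library, so p-values measure the spread between these libraries.

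Genes were kept by filterByExpr at a minimum count of 10 (14864 of 22721 symbols with a count), scaled by TMM factors (0.823 to 1.11) and compared by the quasi-likelihood test of edgeR 4.0.16 in R 4.3.3, with Benjamini-Hochberg adjustment over all genes tested and a threshold of 0.05. Standard errors were obtained from the log2 fold change and the F statistic. Correlations used log2 CPM with a prior count of 1. Limits from 3 counts cover counting error only. Levels per kilobase and positions used GENCODE mouse release M39.

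The members, gene lists and tests were chosen with earlier results of these data known. Named genes were the members, the targeted gene, listed pathway genes, genes of the marker lists and the 2 genes most like each tested member. Of the marker genes, the macrophage and platelet lists were named whole, and Tek and Egfl7 for their p. As alternatives served the exact test on filtered and unfiltered genes, DESeq2 1.42.0, limma-voom (limma 3.58.1) with quality weights, a robust fit, RLE factors, library size alone, other filters, a replicate block, marker covariates and leaving out each library. The macrophage and fibroblast covariates, and the exact test and DESeq2 with each library left out, were added after the data were seen. The exact test was run first with dispersions from the design. After its count of calls was seen, edgeR's standard form replaced it, so the standard form was also chosen with the data seen. Both forms are given. The scripts' tests were tested on simulated data. The lowest chi-square per degree of freedom between libraries of a group was 13.6, so no pair agreed within counting error. This check cannot tell separate animals from repeated preparations of the same animal. Each library was counted as a separate one.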

Additional observations from a re-analysis of the deposited data

Results flagged for a closer look

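Dixon's criterion at the 95% level was applied to 82 groups of 4 libraries, namely both genotypes for the members, further genes named in the text, 4 ratios and the 14 marker sums. It marked 8 of them, where chance gives about 4.1, and no member of the prostaglandin enzymes was among them. In MGL KO 4 the summed markers of airway secretory cells were at 8975 normalized CPM (0.812 to 52.4 in the other MGL KO libraries), of airway ciliated cells at 543.4 (9.93 to 19.8) and of mesothelium at 169.96 (7.49 to 26.0). Cbr1 was at 40.9 normalized CPM in the same library (26.6 to 28.9 in the others). The summed smooth muscle markers stood apart in MGL KO 3, at 2003 normalized CPM (1442 to 1520). In WT 3 the summed basal squamous markers were at 3270 normalized CPM (4757 to 4915 in the other WT libraries) and Abcc4 was at 19.9 (27.0 to 28.3). Hpgds was at 7.36 normalized CPM in WT 1 (3.48 to 4.11).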

How the results depend on the processing

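The number of members called was 0 in edgeR's quasi-likelihood test and 1, Hpgd, in the exact test, the exact test without a filter, the exact test with dispersions from the design and DESeq2. No other pathway gene was called in any alternative. With each library left out, the exact test and DESeq2 each called 1 member, Hpgd, in 4 of 8 fits and 0 without MGL KO 1, WT 1, WT 2 or WT 4; the sign of Pla2g4a then turned without MGL KO 4 (-0.258 and -0.247). Of the other 207 alternative log2 fold changes of members, 202 kept their direction and 198 also their side of the threshold. The 5 that changed direction were Pla2g4a, at -0.0066 in limma-voom with quality weights and between -0.26 (without MGL KO 4) and 0.45 (without MGL KO 2) when a library was left out, Ptgs1, at 0.055 with the macrophage and 0.016 with the fibroblast covariate, and Tbxas1, at 0.26 with the macrophage covariate; the cause was not tested. Members whose groups did not overlap numbered 2, Ptgis and Hpgd, without a filter (4.6% of all genes) and with 10 counts in every library (6.2%). They numbered between 1 and 2 when a library was left out, the second being Ptgis without MGL KO 2 or WT 2 and Ptges3 without MGL KO 3, while between 7.86% and 10.9% of all genes did not overlap in these fits. By library size alone the number was 1, but the gene was Ptgis. Over all genes the quasi-likelihood test called 7, the exact test 64 and DESeq2 137.

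With the replicate number as a block (replicate block), 0 members were called and 2 genes overall. Deviations of same-numbered libraries had correlations from -0.281 to 0.0802, and nothing but the number ties them together.

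Depth limits Ptgds, with 2 to 12 counts, and leaves Ptgs2 at 15 to 79.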
